A study of Mus musculus with 87 samples.

Results

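The full accessory knockout of mouse embryonic stem cells, genotype Pcl1-3 + Jarid2 + Aebp2 + Epop KO, called the full knockout here, was compared with wild-type (WT) cells by RNA sequencing. The comparison takes the 3 libraries labelled with that genotype and the 3 labelled WT, which are 6 of the 24 RNA libraries and of the 87 samples of the series. Its members are all Ensembl gene IDs with enough counts to test, 14650 of the 55450 IDs in the files. All cells were grown on gelatin in 2i medium, a medium with a pair of kinase inhibitors that holds stem cells in the naive state. The WT libraries carry the strain label 129B6F1 and the full-knockout libraries 129B6F8. The label differs between all 8 genotypes by its last digit, which goes up by 1 from genotype to genotype. Whether it stands for different strains or is a numbering error is not known, and strain as labelled and genotype cannot be told apart. The other groups used for comparison, with 3 RNA libraries each, are Suz12 KO, Jarid2 + Aebp2 KO, Pcl1-3 KO, Pcl1-3 + Epop KO, Pcl1-3 + Jarid2 KO and Pcl1-3 + Jarid2 + Aebp2 KO, the last called the PJA knockout after its targets (Polycomb-like, Jarid2, Aebp2). Nothing in the labels tells if a genotype's 3 libraries are different cultures or clones; the p-values then describe variation among these libraries alone, and that variation may be technical. The labels also do not say whether the 5 genotypes that lack Pcl1-3 descend from 1 clone.

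Polycomb repressive complex 2 (PRC2) methylates lysine 27 of histone H3 and helps to keep developmental genes silent in stem cells. Its core holds the methyltransferase EZH2 or EZH1 together with EED, SUZ12 and RBBP4 or RBBP7, and cells without SUZ12 cannot assemble a working complex. Accessory subunits join the core in alternative sets: a Polycomb-like protein with or without EPOP in one form of the complex, and JARID2 with AEBP2 in the other. The series asks whether these accessory subunits jointly direct PRC2 to its sites, and the full knockout is the genotype labelled as lacking all of those targeted, with no core gene in its label.

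The Polycomb-like proteins bind methylated histone H3 tails and unmethylated CpG-rich DNA. In the mm10 build (RefSeq table of GRCm38.p6), Phf1, which encodes PCL1, lies at chr17:26933127-26937908. Mtf2, which encodes PCL2, lies at chr5:108065660-108109219, and Phf19, which encodes PCL3, at chr2:34893752-34914353. Jarid2, a Jumonji-family gene whose protein binds nucleosomes, lies at chr13:44730774-44921643, and Aebp2, which encodes a zinc finger protein, at chr6:140622454-140678472. Epop, whose protein binds SUZ12 and the elongin complex, lies at chr11:97627387-97629716. The core gene Suz12, used here for comparison, lies at chr11:79993106-80034123. The count files name genes by Ensembl ID and the reference table used here does not pair these IDs with symbols. The counts of the targeted genes in their own knockouts, stem cell markers and markers of other cell types were therefore not read, and the results below are given by ID without a statement on function.

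The WT libraries held 10148155 to 14040580 counts and the full-knockout libraries 11454093 to 12843034. Levels are given in CPM, read counts relative to the library size after TMM scaling. At 1 CPM or more, 12373 ± 27 IDs were seen in WT (SD, n = 3; 12342 to 12393) and 12550 ± 170 in the full knockout (12376 to 12716), and these ranges overlap. Over 10210 IDs of at least 5 CPM, the median absolute log2 CPM difference between WT libraries was 0.116 to 0.145. Full-knockout replicates 1 and 2 differed by 0.15, but replicate 3 differed from them by 0.337 and 0.246. The 9 pairs of a full-knockout and a WT library differed by 0.246 to 0.476, so full-knockout replicate 3 lay about as far from its own replicates as some WT libraries did. The main counts are given with and without it. Replicate 3 of Pcl1-3 + Epop KO stood farther apart, at 0.381 and 0.293 from its replicates.

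RNA levels in the full knockout, which is labelled as lacking 6 accessory subunits, differed from WT in both directions and in similar numbers. With edgeR's quasi-likelihood test and a Benjamini-Hochberg adjusted p under 0.05, 2510 IDs rose (17.1% of those tested) and 2313 fell (15.8%), together 32.9%. The median log2 fold change was 0.95 among the risen IDs and −0.79 among the fallen ones. A change of over 2-fold was seen in 1205 of the risen IDs (48.0%) and 937 of the fallen ones (40.5%). Every full-knockout library lay above every WT library for 3427 of the 14650 tested IDs and below every one for 3495. Of the 4823 called IDs, 4568 (94.7%) showed no overlap between the groups, and so did 2354 IDs that were not called. The calls and the overlap rest on the same libraries, so this share is a description. Without full-knockout replicate 3, 1906 IDs rose and 1770 fell, of which 997 and 833 by over 2-fold.

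**Figure D1:**
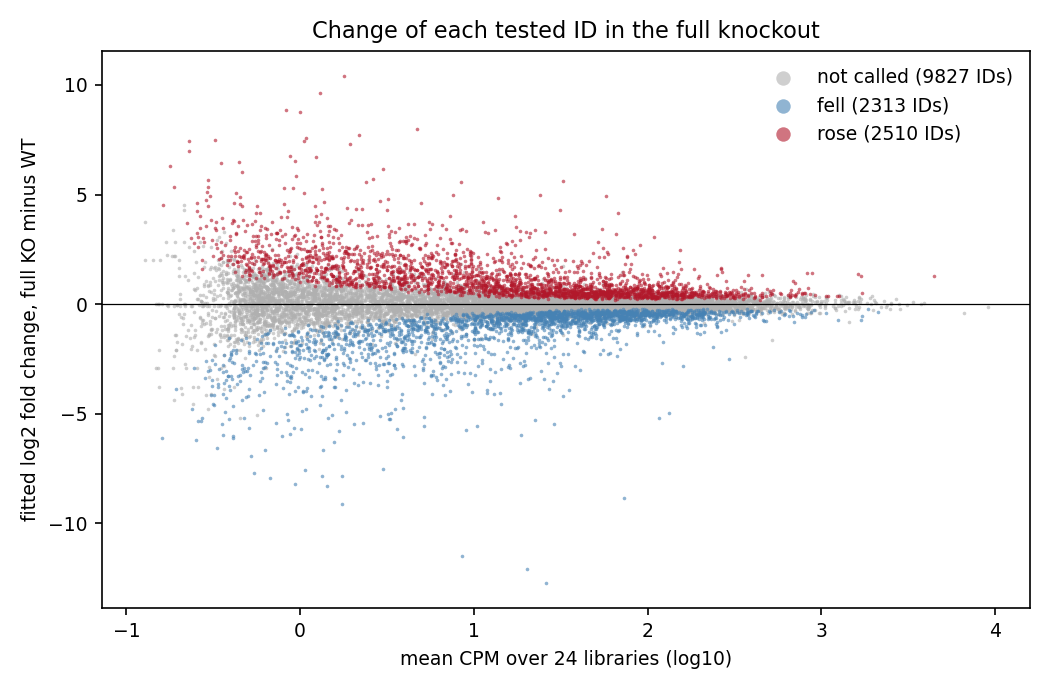
Each point is 1 of the 14650 tested IDs; the horizontal axis is log10 of its mean CPM over the 24 RNA libraries and the vertical axis its fitted log2 fold change, full knockout minus WT. Red points rose (2510 IDs), blue points fell (2313) and grey points were not called (9827); called changes lie on both sides at all levels, and the larger ones are mostly at low CPM.

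Most called changes were of at most 2-fold. Fitted log2 changes of at most 0.5 were found for 521 risen and 560 fallen IDs, and changes between 0.5 and 1 for 784 and 816. In these bands the fallen IDs were slightly more numerous. Changes between 1 and 2 were found for 716 risen and 510 fallen IDs, and changes between 2 and 3 for 306 and 226. Above a log2 change of 3 there were 183 risen and 201 fallen IDs.

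The balance between rises and falls differed with the expression level, taken as the mean CPM of all 24 libraries. Among 1907 IDs under 1 CPM, 14.2% rose and 9.33% fell. Among 2533 IDs from 1 to under 5 CPM, the shares were 21.4% and 16.3%. Rises outnumbered falls in these classes of low expression, but the classes share libraries with the comparison: an ID that is high in the full knockout alone falls in a low class, and an ID low there alone in a higher one. Among 2884 IDs from 5 to under 20 CPM, 19.5% rose and 18% fell, and among 4891 IDs from 20 to under 100 CPM, 15.4% rose and 18% fell. The class from 20 to under 100 CPM was thus the one with more falls than rises. At 100 CPM and over, 15.8% of 2435 IDs rose and 13.3% fell, but over 2-fold there were only 34 rises and 22 falls. The precision also differs between the classes: the median standard error of the log2 fold change was 0.63 under 1 CPM and 0.13 at 100 CPM and over, and the median absolute log2 change of the called IDs was 2.54 and 0.48. With classes set by the 6 other knockouts, chosen after the data had been seen, 15.7% rose and 9.48% fell under 1 CPM, and 15.4% and 18% from 20 to under 100 CPM. With classes set by WT alone the shares under 1 CPM were 23.1% and 4.40%, and with classes set by the full knockout alone they were 4.83% and 20.3%, so there the classes fix the direction. An ID of low level also had to be high in some group to be tested. Without full-knockout replicate 3, the shares under 1 CPM were 8.44% and 6.06%, and from 20 to under 100 CPM they were 12.0% and 13.3%.

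**Figure D2:**
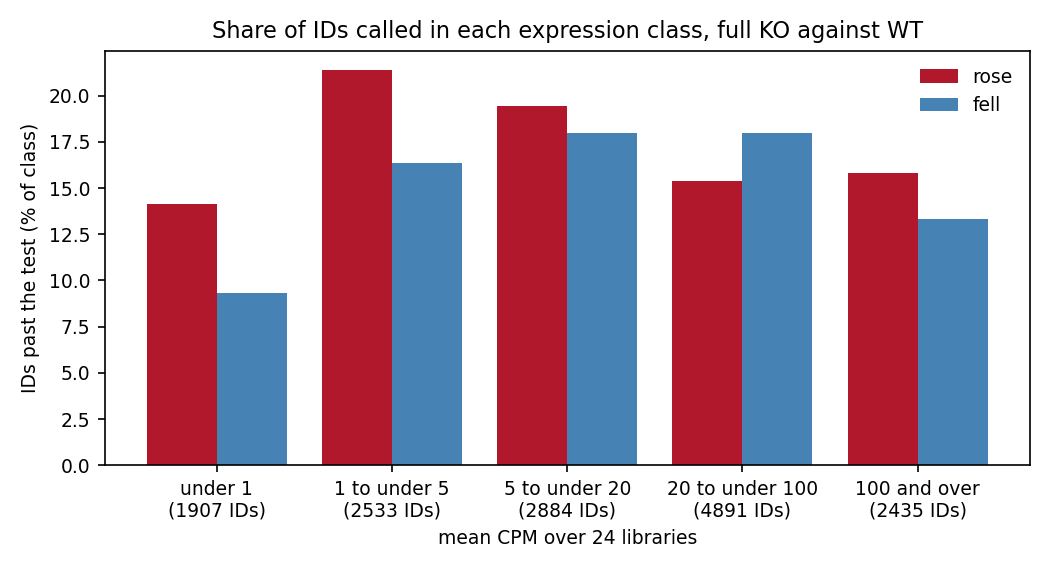
Bars give the percent of IDs in each class of mean CPM (over 24 libraries) that rose (red) or fell (blue) in the full knockout against WT, with the class size under each pair. The share that rose is above the share that fell in every class but the one from 20 to under 100 CPM, where 15.4% rose and 18% fell.

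The changed IDs took a different share of each library, given as a description because they were chosen on these libraries. The risen IDs held 11.8% ± 0.262 of the counts in WT (SD, n = 3) and 18.5% ± 1.08 in the full knockout. The fallen IDs held 15% ± 0.388 and 9.78% ± 0.874. Those that changed by over 2-fold were a small part of the RNA: the risen ones went from 1.56% ± 0.169 to 4.27% ± 0.285 and the fallen ones from 1.74% ± 0.120 to 0.537% ± 0.0283.

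The 2 IDs with the highest fold change had no count in any WT library. ENSMUSG00000037335.13 had 0 counts in the 3 WT libraries and 135, 153 and 151 counts in the full-knockout libraries, which are 12.1, 12.1 and 12.6 CPM. All 3 full-knockout libraries were high and close to each other, with a mean of 12.3 ± 0.294 CPM (SD, n = 3), at least 139-fold higher than WT taken at a floor of 3 counts over the group. The fitted log2 change was 10.41 (SE 0.72, adjusted p = 4.23e-09 by edgeR); a fitted change from 0 counts depends on the prior count and is no bound. The ID was seen at 1.35 ± 0.385 CPM in the Suz12 knockout and at 0.476 ± 0.170 CPM in the Pcl1-3 + Jarid2 knockout. In the PJA knockout, which differs from the full one in its targets by Epop, it had 5 counts over 3 libraries, 0.124 ± 0.0805 CPM. Its level in the full knockout was above that in the Suz12 knockout (log2 difference 3.17, SE 0.35, adjusted p = 7.74e-07 by edgeR) and above that in the PJA knockout (6.52, SE 0.48, adjusted p = 5.84e-08 by edgeR).

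ENSMUSG00000050368.4 also had 0 counts in the 3 WT libraries and had 62, 78 and 115 counts in the full-knockout libraries, which are 5.57, 6.15 and 9.60 CPM. Replicate 3 was the highest of them, and all 3 were above every other RNA library of the series. The full-knockout mean of 7.11 ± 2.18 CPM (SD, n = 3) was at least 80.7-fold higher than WT at the floor of 3 counts over the group, with a fitted log2 change of 9.62 (SE 0.72, adjusted p = 1.03e-08 by edgeR). Lower levels were found in the Pcl1-3 + Jarid2 knockout (1.39 ± 0.106 CPM), the Suz12 knockout (0.814 ± 0.258) and the PJA knockout (0.747 ± 0.0720). The full-knockout level exceeded that of the Suz12 knockout by 3.11 on the log2 scale (SE 0.35, adjusted p = 1.10e-06 by edgeR) and that of the PJA knockout by 3.23 (SE 0.36, adjusted p = 7.16e-06 by edgeR).

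In a comparison added after the counts had been seen, an interaction was tested: full minus PJA knockout set against Pcl1-3 + Epop KO minus Pcl1-3 KO. In both pairs the targets differ by Epop, in the PJA background and in the Pcl1-3 background. Strain labels differ within both pairs too, and loss of Epop cannot be told apart from other differences between the lines. For ENSMUSG00000037335.13 the log2 difference of differences was 5.58 (SE 1.58, adjusted p = 0.0770 by edgeR), and for ENSMUSG00000050368.4 it was 2.76 (SE 1.00, adjusted p = 0.215 by edgeR). Neither passed the threshold. Without full-knockout replicate 3 the adjusted p were 0.114 and 0.337 by edgeR. With the replicate number as a block in the fit they were 0.0509 and 0.159 by edgeR. Over all IDs, 149 passed upward and 157 downward (2.09%). With no filter on low counts 343 and 356 passed, and without full-knockout replicate 3, 123 and 119. The upward count was 99 without full-knockout replicate 2, 86 without Pcl1-3 replicate 3, 236 without Pcl1-3 + Epop replicate 3 and 99 without PJA replicate 1, and the downward count was 95 without full-knockout replicate 2.

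The 2 IDs with the lowest fold change were expressed in WT and had no count in any full-knockout library. ENSMUSG00000069045.11 had 633, 642 and 754 counts in WT, which are 61.7, 63.7 and 54.9 CPM (mean 60.1 ± 4.59, SD, n = 3). With 0 counts in all full-knockout libraries it was at least 717-fold lower there, at a floor of 3 counts over the group (fitted log2 change −12.70, SE 0.43, adjusted p = 1.29e-13 by edgeR). ENSMUSG00000069049.11 had 366, 388 and 584 counts in WT, which are 35.7, 38.5 and 42.5 CPM (mean 38.9 ± 3.45, SD, n = 3). It too had 0 counts in all full-knockout libraries, at least 464-fold lower (fitted log2 change −12.07, SE 0.55, adjusted p = 3.97e-09 by edgeR).

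Both fallen IDs split the genotypes by Pcl1-3. ENSMUSG00000069045.11 stood at 73.0 ± 2.95 CPM in the Suz12 knockout and 74.7 ± 5.53 in the Jarid2 + Aebp2 knockout (SD, n = 3 each), while the 4 other genotypes that lack Pcl1-3 had 1 or 2 counts in 3 libraries together. ENSMUSG00000069049.11 stood at 52.2 ± 10.1 CPM and 71.2 ± 15.9 CPM in the same 2 genotypes, and had 0 counts in 3 of the 4 other Pcl1-3 knockouts and 2 counts in Pcl1-3 + Jarid2 KO. Against the Suz12 knockout the fitted log2 differences of the full knockout were −12.98 (SE 0.43, adjusted p = 7.30e-14 by edgeR) and −12.50 (SE 0.53, adjusted p = 1.50e-09 by edgeR). A loss of RNA that follows the loss of Pcl1-3 and a change carried by a shared parent clone cannot be told apart in this design. The genome positions of these IDs were not read, and the planned list of sex-linked genes was not run. Whether these IDs lie on the same chromosome, or on a chromosome absent from the Pcl1-3 knockouts, was not tested. Neither fall is therefore given as an effect of losing Pcl1-3.

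**Figure D3:**
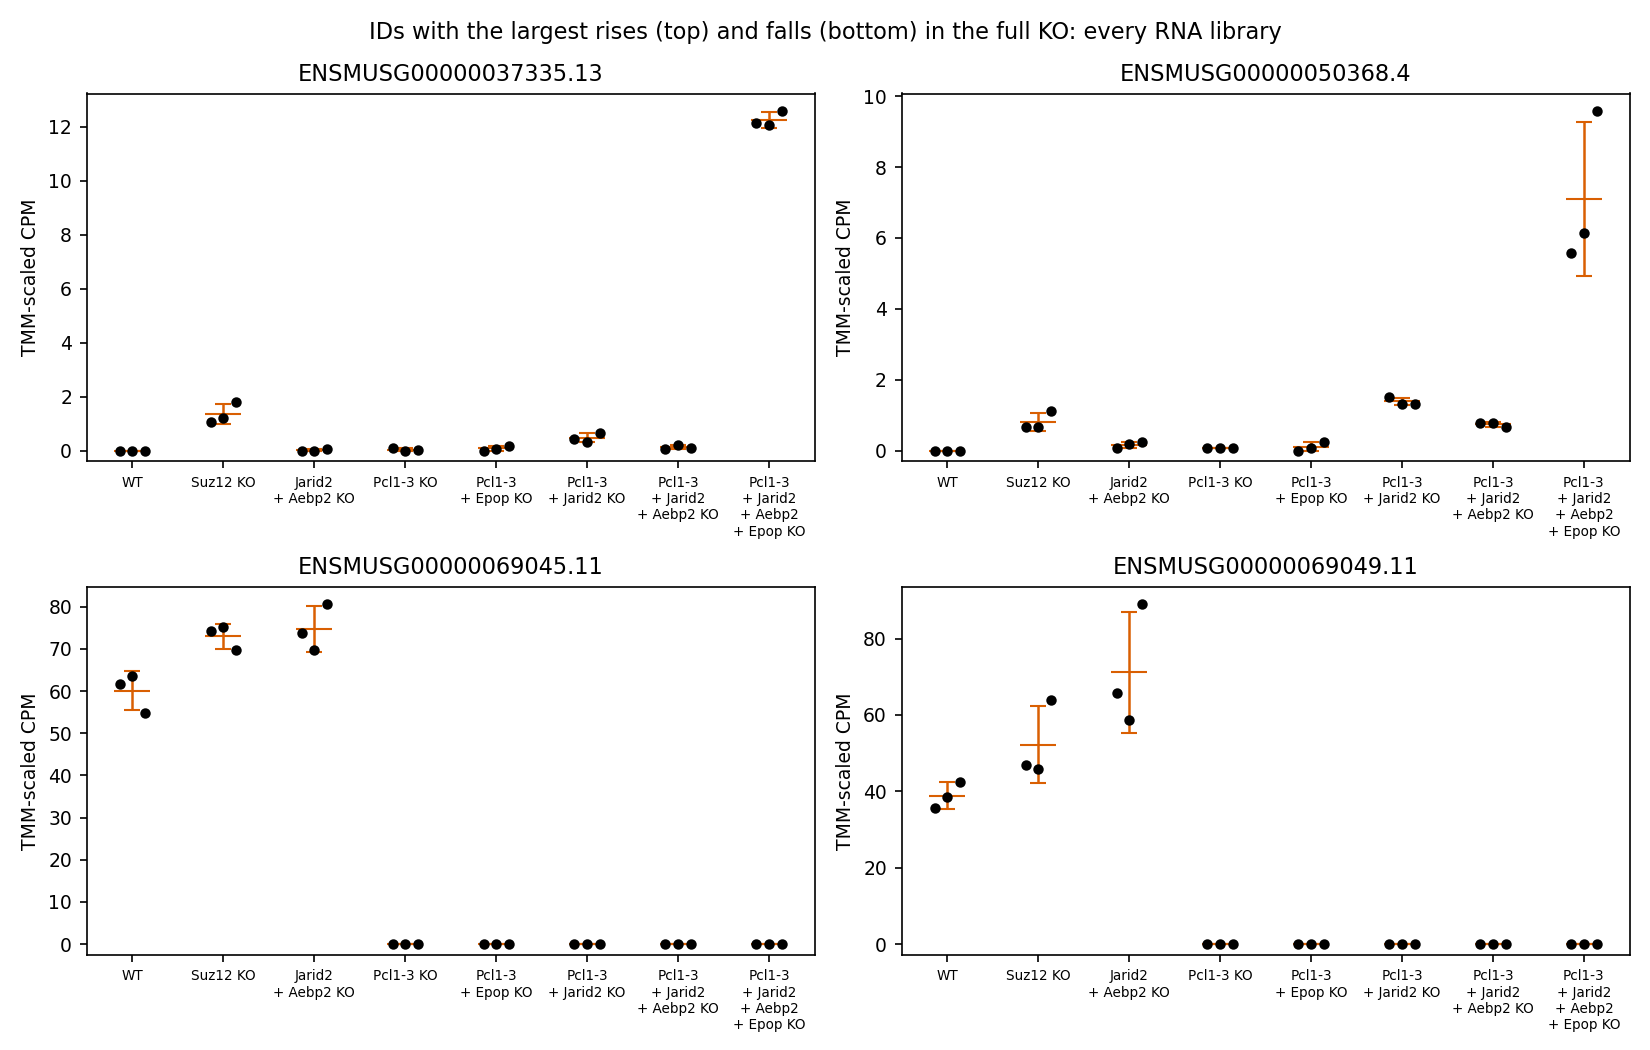
TMM-scaled CPM of the 2 IDs with the highest (top) and the 2 with the lowest (bottom) fold change in the full knockout; each point is 1 RNA library, the long horizontal line the mean and the error bar ± SD of 3 libraries per genotype. The risen IDs are highest in the full knockout with means of 12.3 and 7.11 CPM, and the fallen IDs are near 0 in all 5 genotypes that lack Pcl1-3.

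Beyond these, IDs were counted that moved between near silence and expression, defined as a group mean under 0.5 CPM in one genotype and at least 2 CPM in the other with no overlap between the libraries. By this rule 73 IDs gained expression in the full knockout and 87 lost it. All 160 had also passed the edgeR test; without full-knockout replicate 3 the counts were 66 and 92. Of the gained IDs 4 had no WT count, and of the lost IDs 9 had no count in the full knockout. The levels in the other knockouts, which the choice of IDs did not use, are described next.

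The gained IDs had a median of 0.302 CPM in WT and 3.28 CPM in the full knockout. In the Suz12 knockout their median was 1.70 CPM, with 31 of 73 at 2 CPM or more and 2 under 0.5 CPM. That knockout also held more IDs of at least 1 CPM among all tested, 13199 ± 75.8 against 12373 ± 27 in WT (SD, n = 3 each). Choosing the gained IDs as low in WT favours higher levels in any other genotype. The partial accessory knockouts lay lower, with medians of 0.475 CPM in Jarid2 + Aebp2 KO, 0.547 in Pcl1-3 KO, 0.616 in Pcl1-3 + Epop KO, 0.821 in the PJA knockout and 1.18 in Pcl1-3 + Jarid2 KO. A level of 2 CPM was reached by 7 gained IDs in the PJA knockout and by 11 in at least 1 of the 4 other Pcl1-3 knockouts. In these 4 genotypes 8 gained IDs were under 0.5 CPM throughout, and no gained ID was under 0.5 CPM in all 6 other knockouts. The full knockout held the highest mean of the 8 genotypes for 53 gained IDs and the Suz12 knockout for 18; choosing the IDs on the full-knockout libraries favours the former.

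The lost IDs had a median of 3.32 CPM in WT and 0.224 CPM in the full knockout. Choosing them as expressed in WT favours lower levels in any other genotype. They stayed closer to WT in the Suz12 knockout (median 2.64 CPM, 54 of 87 at 2 CPM or more) and in the Jarid2 + Aebp2 knockout (2.41 CPM, 47 of 87). The medians were 1.05 CPM in Pcl1-3 KO, 1.12 in Pcl1-3 + Epop KO, 0.723 in Pcl1-3 + Jarid2 KO and 0.594 in the PJA knockout, where 36 lost IDs were under 0.5 CPM and 9 at 2 CPM or more. For 41 lost IDs the full knockout was the one knockout with a mean under 0.5 CPM, which choosing the IDs on its libraries favours. Another 12 were under 0.5 CPM in all 4 other Pcl1-3 knockouts as well, and 6 of these kept at least 2 CPM in WT, Suz12 KO and Jarid2 + Aebp2 KO. The 2 fallen IDs described above are among 4 lost IDs with at most 5 counts over all 15 libraries that lack Pcl1-3.

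Other patterns among the lost IDs were picked out after their levels had been seen. One ID stood at 105 ± 9.46 CPM in WT, 107 ± 8.76 in Suz12 KO, 90.4 ± 19.2 in Pcl1-3 KO, 99.5 ± 9.48 in Pcl1-3 + Epop KO and 181 ± 31.9 in Pcl1-3 + Jarid2 KO (SD, n = 3 each). It was at 0.0413 ± 0.0715 CPM in Jarid2 + Aebp2 KO, 0.171 ± 0.0762 in the PJA and 0.213 ± 0.240 in the full knockout. Its RNA was thus near 0 in the 3 genotypes that lack Aebp2 and high in the 5 that keep it. Of all 14650 IDs it alone was under 0.5 CPM in the former and at least 2 CPM in each of the latter. As no symbol was paired with this ID, whether it is the targeted Aebp2 gene itself was not tested. A further ID stood at 17.7 ± 3.69 CPM in WT and between 5.67 ± 1.75 (Suz12 KO) and 16.6 ± 0.383 (Jarid2 + Aebp2 KO) in the 6 other knockouts, and at 0.361 ± 0.111 in the full knockout. It was 1 of 2 lost IDs with means of at least 5 CPM in all 7 other genotypes.

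**Figure D4:**
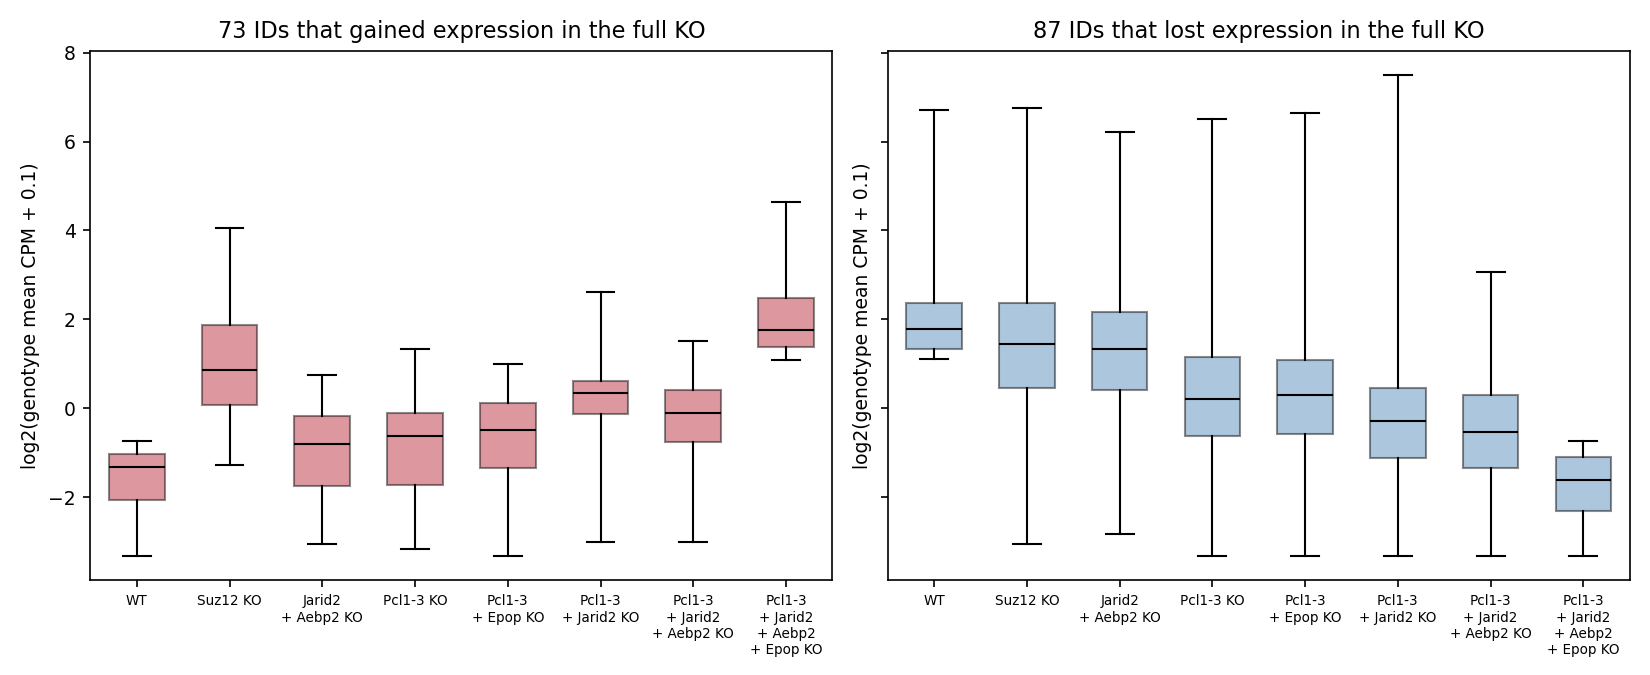
Levels of the 73 IDs that gained (left) and the 87 that lost expression (right) in each genotype, as log2 of the mean CPM of 3 libraries plus 0.1; boxes give the quartiles and median over IDs and whiskers the lowest and highest ID. WT and the full knockout differ by the choice of IDs; among the others the gained IDs are highest in Suz12 KO (median 1.70 CPM) and the lost IDs lowest in the PJA knockout (0.594 CPM).

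The full knockout was also set directly against the Suz12 and the PJA knockouts. Against the Suz12 knockout 3040 IDs were higher and 3254 lower (43.0% of all tested, edgeR), of which 960 and 1948 by over 2-fold. Without full-knockout replicate 3 the counts were 2693 and 3016, and 788 and 1990 over 2-fold. The large differences thus lay mostly on the side where the Suz12 knockout was higher. Against the PJA knockout 848 IDs were higher and 799 lower (11.2%), of which 556 and 270 by over 2-fold, so that here more of the large differences were upward in the full knockout. Without full-knockout replicate 3, 562 were higher and 526 lower, of which 410 and 207 by over 2-fold. Without PJA replicate 1, 539 were higher and 546 lower, of which 408 and 230 by over 2-fold. With the replicate number as a block in the fit, 1521 were higher and 1528 lower, of which 749 and 349 by over 2-fold.

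Because the changes of the full knockout were chosen against WT, they were followed in comparisons among the other knockouts that share no library with either group. These comparisons were added after the counts had been seen. They come from the same fit and share its estimates of the spread of each ID. An ID with a small spread is more easily called in any of them, so the shares are a description. In the PJA knockout against the Jarid2 + Aebp2 knockout, where the targets differ by Pcl1-3, 6.87% of all tested IDs rose and 6.83% fell. The strain label differs here too, and loss of Pcl1-3 cannot be told apart from a parent clone shared by the Pcl1-3 knockouts. Of the 2510 IDs risen in the full knockout, 616 (24.5%) rose there and 33 fell, with a median log2 change of 0.31. Of the 2313 fallen IDs, 611 (26.4%) fell and 25 rose, with a median of −0.31. Most IDs of either set were not called there, and those called lay mainly in the direction they had in the full knockout. Without replicate 3 of every genotype, 2024 IDs rose and 1944 fell in the full knockout; 24.3% of the former rose and 22.0% of the latter fell here, beside 5.28% and 4.86% of all tested. The small opposite counts depended on the filter and on single libraries: 33 became 64 with no filter on low counts and 21 without WT replicate 2 or Jarid2 + Aebp2 replicate 3, and 25 became 13 without Jarid2 + Aebp2 replicate 3 and 16 without PJA replicate 1 or 2.

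In the PJA against the Pcl1-3 knockout, where the targets differ by Jarid2 and Aebp2, 2.98% of all tested IDs rose and 2.41% fell. Of the IDs risen in the full knockout 302 (12.0%) rose and 15 fell, with a median log2 change of 0.23. Of the fallen ones 226 (9.77%) fell and 18 rose, with a median of −0.21. With no filter on low counts the opposite counts were 46 and 37. They were also lower without single libraries, down to 6 and 7 without Pcl1-3 replicate 3, and 25 risen IDs fell without Pcl1-3 + Epop replicate 3. The counts in the direction of the full knockout were sensitive to single libraries: 150 and 117 without Pcl1-3 replicate 1, 159 and 110 without Pcl1-3 replicate 3, 184 and 118 without PJA replicate 2, and 185 and 128 without PJA replicate 3. Without replicate 3 of every genotype, 10.4% of the 2024 IDs then risen rose and 5.45% of the 1944 then fallen fell, beside 2.00% and 1.19% of all tested.

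In Pcl1-3 + Epop KO against Pcl1-3 KO, where the targets differ by Epop, edgeR called 1 ID of all tested (0.00683%) and DESeq2 called 1 higher and 2 lower. None of the 2510 risen and 2313 fallen IDs passed the edgeR test there. At an unadjusted p under 0.05, 42 risen IDs rose and 14 fell, and 26 fallen IDs fell and 19 rose. DESeq2 called 1 fallen ID lower, and edgeR 1 without full-knockout replicate 3; with no filter on low counts, edgeR called 8 risen IDs higher and 1 lower, and 2 fallen IDs lower and 5 higher. The median log2 changes of the risen and fallen IDs were 0.04 and −0.03. Without replicate 3 of every genotype the median of the risen IDs turned to −0.02 and that of the fallen ones was −0.0026, and no ID of all tested was called by edgeR.

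In the Suz12 against the Jarid2 + Aebp2 knockout, 24.1% of all tested IDs rose and 22.3% fell. Of the IDs risen in the full knockout 1005 (40.0%) rose and 377 (15%) fell, with a median log2 change of 0.28. Of the fallen IDs 779 (33.7%) fell and 452 (19.5%) rose, with a median of −0.17. The shares in the direction of the full knockout were above those of all tested IDs, and the shares in the opposite direction below them. Without WT replicate 1, 234 risen IDs fell. Without replicate 3 of every genotype, 42.3% of the risen IDs of that fit rose and 33.4% of the fallen ones fell, beside 23.8% and 21.1% of all tested.

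**Figure D5:**
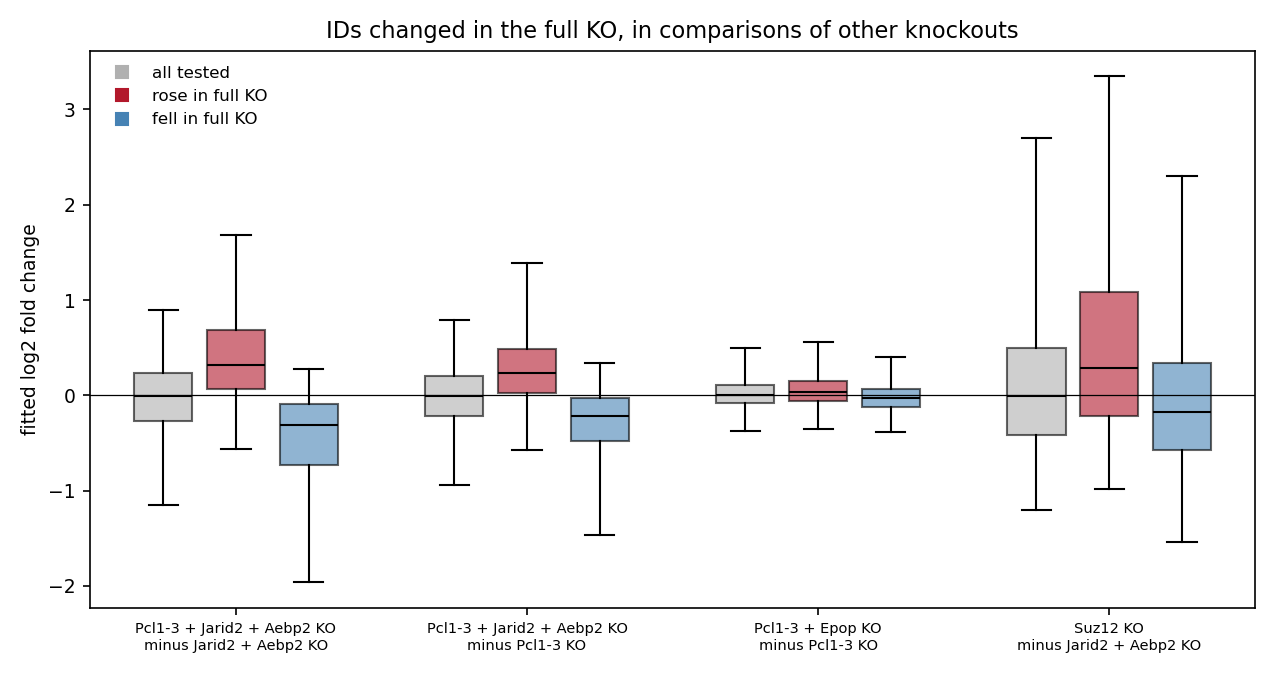
Fitted log2 fold change of all tested IDs (grey), those that rose (red) and those that fell (blue) in the full knockout, in 4 comparisons between other knockouts that share no library with the full knockout or WT; boxes give quartiles and median over IDs and whiskers the 5th and 95th percentiles. The red medians are 0.31, 0.23, 0.04 and 0.28 and the blue ones −0.31, −0.21, −0.03 and −0.17, from left to right.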

How the data were processed

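For each RNA library the authors deposited 1 file of raw read counts by Ensembl gene ID. Per the submitters' processing notes, STAR, HTSeq and mm10 were used, with no versions; whether counting used strand is not given in the sources that were used here. Overlapping, antisense and near-identical genes are uncertain. Per the labels' protocols, total RNA went into TruSeq v2 libraries. The counts went into edgeR 4.0.16 (R 4.3.3): filterByExpr, TMM, 1 mean per genotype over all 24 libraries, robust quasi-likelihood fit, Benjamini-Hochberg adjustment over 14650 IDs. The fit was tested on simulated counts. Folds against groups with no count use a floor of 3 counts over the group, which covers counting error only.

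The members and lists were chosen with earlier results of these data known. Named IDs are the 2 highest and 2 lowest by log2 fold change among called IDs with at least 1 CPM in a group and no overlap. The planned 35 gene lists and the counts by SUZ12, JARID2 and PCL2 peaks need symbols for the IDs (0 RefSeq genes carried an Ensembl ID) and were not run. The 63 chromatin immunoprecipitation samples and 3 peak lists were not used here. Alternatives covered scaling, DESeq2, filters, libraries fitted, replicate blocks, a minimum fold and left-out libraries.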

Additional observations from a re-analysis of the deposited data

How the results depend on the processing

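The 4 named IDs kept their direction and their side of the threshold in every alternative run for them, with a largest adjusted p of 8.96e-05 against WT, 3.55e-05 against the Suz12 knockout and 0.000315 (2 IDs) against the PJA knockout. With a fold of at least 1.5 tested by glmTreat, 885 IDs rose and 738 fell against WT; 858 were higher and 1732 lower than in the Suz12 knockout, and 293 higher and 149 lower than in the PJA knockout. DESeq2 size factors gave 2520 rises and 2308 falls, DESeq2 2602 and 2437, no filter 2483 and 2375, a stricter filter 2457 and 2274, and the 6 libraries alone 2166 and 1976. Leaving out 1 library at a time over all 8 genotypes gave 1844 to 2743 rises, 1737 to 2553 falls, 2473 to 3354 higher and 2861 to 3609 lower IDs against the Suz12 knockout, and 539 to 1063 higher and 526 to 1014 lower IDs against the PJA knockout. Leaving out WT and full-knockout libraries gave 997 to 1229 rises and 826 to 982 falls over 2-fold, 66 to 90 gained and 79 to 96 lost IDs. Libraries of the 6 other genotypes were left out by a choice made after seeing the data, as was replicate 3 of every genotype, without which 2024 IDs rose and 1944 fell and 503 were lower than in the PJA knockout. Limits of 0.25 and 1 CPM gave 101 gained and 97 lost IDs, and limits of 1 and 4 CPM gave 65 and 63. The replicate numbers were not treated as pairs: the correlations of same-numbered WT and full-knockout deviations were 0.24, 0.0315 and 0.0729, and not every library correlated best with its own number, although over 8 genotypes same-numbered libraries averaged 0.295 and others −0.147. With the number as a replicate block, 3285 IDs rose and 3111 fell against WT (2402 and 2231 with 6 libraries), 1521 were higher and 1528 lower than in the PJA knockout, the interaction had 464 upward and 450 downward calls (343 and 356 with no filter and no block), and in the PJA against the Jarid2 + Aebp2 knockout 1039 risen IDs rose and 116 fell, and 1035 fallen IDs fell and 73 rose; against the Pcl1-3 knockout the counts were 675, 60, 551 and 59. Under this block, in the Suz12 against the Jarid2 + Aebp2 knockout 648 risen IDs fell, 1172 fallen IDs fell and 702 rose, and the interaction of the risen named IDs had adjusted p of 0.0509 and 0.159. The causes of these shifts were not tested. Depth limits IDs under 1 CPM, where the median standard error was 0.63. The alternatives for peak distance, peak width and gene lists were not run.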
